A study of Mus musculus with 12 samples.

Results

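The genes carried by the mitochondrial genome were described in 12 RNA-seq libraries of mouse hypothalamus. Members were the rows of the raw count table whose mapped symbol starts with mt-, which gave 37 of 78334 gene IDs: 13 mRNAs, 2 rRNAs and 22 tRNAs. All animals were male C57BL/6 mice, 8 weeks old at the start. The control group (C, n = 3) stayed on standard chow and received vehicle by gavage. The obesity group (Ob, n = 3) was placed at 8 weeks of age on a high-fat diet (HFD) with 60% of its kcal from fat, which the labels give as lasting 8 weeks, and received vehicle by gavage. The other 3 groups had the same HFD and a daily gavage with 2.25 mg/kg resveratrol (Ob + RSV, n = 3), 200 mg/kg aged garlic extract (Ob + EAE, n = 2) or 50 mg/kg curcumin (Ob + CUR, n = 1). In every group, C and Ob included, gavage lasted 28 days and began at 16 weeks of age. The labels name vehicle and the methods of the study name saline for C and Ob, and no source used here gives pooling of animals, so p-values measure the spread between these samples. The single Ob + CUR library has no replicate check. RNA was selected for poly-A tails before library preparation.

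The mitochondrial genome is a small circular DNA present in many copies per cell. Both of its strands are transcribed into long precursors, and the tRNAs that lie between the other genes mark the places where these are cut into separate mRNAs, rRNAs and tRNAs. The mRNAs encode core subunits of complexes I, III, IV and V of oxidative phosphorylation, on which neurons depend for ATP, and the rRNAs and tRNAs serve their translation inside the organelle. The partner subunits, the ribosomal proteins and the factors that transcribe, process and translate these RNAs are encoded in the nucleus.

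The sequences below, from GENCODE vM21 transcripts (GRCm38) matched by gene ID, are those on which the measurements turn. Counts were made on GRCm39, so no positions on the genome are printed. First come the 3 tRNAs with the most reads, all from the light strand, and 2 heavy-strand tRNAs described further on, mt-Tl2 as the one with the most reads and mt-Th for its high value in Ob + RSV 2, with the anticodon in capitals. Each is shorter than a single read.
mt-Tp: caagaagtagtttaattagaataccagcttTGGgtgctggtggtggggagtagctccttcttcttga
mt-Tc: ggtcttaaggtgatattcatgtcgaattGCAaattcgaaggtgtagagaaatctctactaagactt
mt-Tn: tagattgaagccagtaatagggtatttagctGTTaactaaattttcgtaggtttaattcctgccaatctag
mt-Tl2: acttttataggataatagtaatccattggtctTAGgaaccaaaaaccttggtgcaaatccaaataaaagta
mt-Th: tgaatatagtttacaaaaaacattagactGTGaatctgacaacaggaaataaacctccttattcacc

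The next sequence is mt-Atp8, the mRNA with the lowest counted level per length, with the 43 bases that it shares with the start of mt-Atp6 in capitals. mt-Nd4l shares 7 bases with mt-Nd4 in the same way, and mt-Nd5 overlaps 14 bases of mt-Nd6 on the opposite strand.
mt-Atp8: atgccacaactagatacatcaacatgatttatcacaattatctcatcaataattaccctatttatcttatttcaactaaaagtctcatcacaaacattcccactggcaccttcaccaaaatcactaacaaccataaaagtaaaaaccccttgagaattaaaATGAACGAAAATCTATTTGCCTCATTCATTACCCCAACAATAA

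The last set is shown because counts of an mRNA and of its nuclear copies are compared further on. It is a window of 100 bases of mt-Co1 (positions 1063 to 1162 from the start of the transcript) with the same stretch of a near-identical nuclear copy, Gm29216, and of a more diverged copy, Gm13340, in which capitals mark the bases that differ from mt-Co1.
mt-Co1: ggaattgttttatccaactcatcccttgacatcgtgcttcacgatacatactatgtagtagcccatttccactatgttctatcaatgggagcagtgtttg
Gm29216: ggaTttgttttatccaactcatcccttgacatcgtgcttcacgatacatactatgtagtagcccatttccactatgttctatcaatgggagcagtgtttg
Gm13340: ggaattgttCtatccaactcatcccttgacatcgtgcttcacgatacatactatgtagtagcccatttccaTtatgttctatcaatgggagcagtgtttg

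Libraries held 15655156 to 26284661 counted reads, and 24450 to 38081 genes had at least 1 read. The Ob + EAE and Ob + CUR libraries had 37165, 38081 and 37598 such genes, more than the 36541 of the highest of the other 9. Of 14 hypothalamus markers, 13 were detected in every library, and their summed level was 1294 to 3346 CPM (the count as a fraction of all counted reads, scaled to 1000000) in C, Ob and Ob + RSV, 1396 and 1185 for the Ob + EAE libraries and 413 for Ob + CUR. Markers of the pituitary summed to at most 16.1 CPM. Endothelial markers (5 of 5 detected) summed to 79.4 to 146 CPM in the 9 libraries of C, Ob and Ob + RSV, to 226 and 223 in Ob + EAE and to 253 in Ob + CUR, and blood markers (5 of 5 detected) to 61.0 to 207 CPM, to 225 and 188 and to 267. The endothelial sum was thus higher in the Ob + EAE and Ob + CUR libraries than in all 9 others and the blood sum overlapped with them in Ob + EAE. Oligodendrocyte markers (6 of 6 detected) summed to 5342 and 4991 CPM in Ob + EAE and 4829 in Ob + CUR, below every Ob library (6311 to 6804) and every Ob + RSV library (7210 to 8387), with C at 5053 to 7847. Neuron markers (8 of 8 detected) summed to 3628 and 3567 CPM in Ob + EAE and 3475 in Ob + CUR. They stood at 2945 to 3506 CPM in Ob, 3526 to 3671 in C and 3406 to 4416 in Ob + RSV. Astrocyte markers (5 of 5 detected) summed to 1045 and 1051 CPM in Ob + EAE and 1374 in Ob + CUR, within the 348 to 1428 of the other 9. The Ob + EAE and Ob + CUR libraries are those in which mitochondrial RNA was low, and the part of all these markers in that was not tested.

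Mitochondrially encoded genes took 3.79% to 7.40% of all counted reads. The 13 mRNAs together stood at 44525, 44486 and 61257 CPM in the C libraries, 42273, 40819 and 56352 for Ob, 42408, 50689 and 49482 for Ob + RSV, 36638 and 35388 for Ob + EAE and 34295 for Ob + CUR. Group means were 50089 ± 9672 CPM (SD, n = 3) in C, 46481 ± 8579 (n = 3) in Ob, 47526 ± 4473 (n = 3) in Ob + RSV and 36013 ± 884 (n = 2) in Ob + EAE. C 3 and Ob 3 were the highest libraries, the groups C, Ob and Ob + RSV overlapped, and the Ob + EAE and Ob + CUR libraries lay below all 9 others. In bulk tissue, fewer mitochondria-rich cells and less of this RNA per cell cannot be told apart.

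The 2 rRNAs, mt-Rnr1 and mt-Rnr2 (the small and large subunit RNAs of the mitochondrial ribosome), showed the widest separation. Their sum was 6973, 6586 and 12581 CPM in the C libraries, 12433, 8506 and 11495 for Ob, 10227, 10905 and 9143 for Ob + RSV, 4460 and 3965 for Ob + EAE and 3586 for Ob + CUR. C 1 and C 2 were the lowest of the first 9 libraries, and all 3 libraries of Ob + EAE and Ob + CUR lay below them. For every 100 mRNA reads there were 15.7, 14.8 and 20.5 rRNA reads in the C libraries, 29.4, 20.8 and 20.4 for Ob, 24.1, 21.5 and 18.5 for Ob + RSV, 12.2 and 11.2 for Ob + EAE and 10.5 for Ob + CUR. Ob 1 had the highest ratio, the 3 Ob libraries were above C 1 and C 2 but did not clear C 3, and Ob + EAE and Ob + CUR had the 3 lowest ratios, so their rRNA was low relative to mitochondrial mRNA as well as relative to all reads. Selection for poly-A tails may capture the classes unequally, and its part in these ratios was not tested.

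The 22 tRNAs together took few reads, with 124, 154 and 144 CPM in the C libraries, 261, 115 and 145 for Ob, 109, 174 and 162 for Ob + RSV, 79.0 and 73.8 for Ob + EAE and 58.2 for Ob + CUR. Ob 1 stood apart at the top, and Ob + EAE and Ob + CUR again held the 3 lowest values. The plot of class totals shows the 3 classes side by side. Treatment with EAE or CUR and any difference in how those libraries were made cannot be told apart, since each treatment has its own libraries and no batch label was given.

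**Figure D1:**
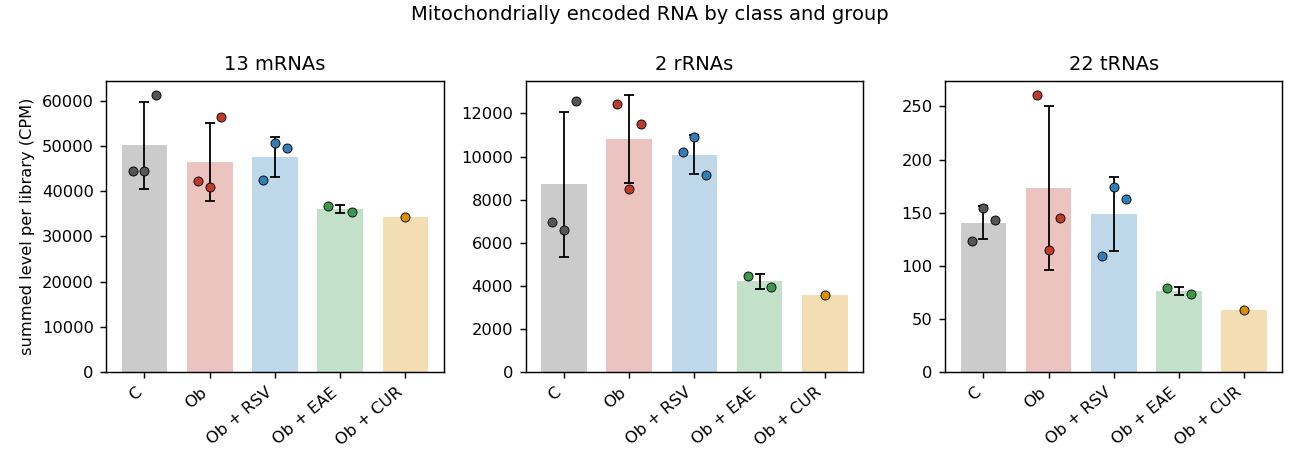
Summed level of the 13 mRNAs, 2 rRNAs and 22 tRNAs (CPM, linear axes from 0). Points are libraries, bars group means and whiskers ± SD (n = 3, 3, 3 and 2, with a single library for Ob + CUR). In each class the Ob + EAE and Ob + CUR libraries lie below the other 9, with rRNA at 3586 to 4460 CPM against 6586 to 12581.

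By the exact permutation test (two-sided, log2 of the summed CPM), no class passed in any comparison. For rRNA the log2 difference was 0.36 in Ob vs. C (exact p = 0.4), -0.08 in Ob + RSV vs. Ob (exact p = 0.7) and -1.34 in Ob + EAE vs. Ob, where the exact p of 0.2 is the smallest that 2 against 3 libraries allow. With 3 against 3 it cannot go below 0.1. The mRNA total differed by -0.11, 0.04 and -0.35 and the tRNA total by 0.22, -0.16 and -1.09 in the same 3 comparisons, with exact p-values of 0.2 to 0.8 and adjusted p-values of 0.8 to 0.873 over all 12 tests. Ob + CUR vs. Ob, with no test, gave -0.42 for mRNA, -1.57 for rRNA and -1.49 for tRNA.

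Among the mRNAs, levels of different genes were compared per length, as RPKM, the CPM divided by the transcript length in kilobases. mt-Co1 led in every library with a median of 9273 RPKM over the 12 libraries, followed by mt-Cytb (4854), mt-Co2 (4567), mt-Nd1 (4428), mt-Co3 (3952), mt-Atp6 (3783), mt-Nd4 (2958), mt-Nd2 (2222), mt-Nd6 (1857), mt-Nd5 (1540), mt-Nd4l (1147), mt-Nd3 (695) and mt-Atp8 (171). The rRNAs fell within this range, at 3867 for mt-Rnr1 and 3244 for mt-Rnr2. RNA was selected for poly-A tails, so levels of different classes or genes here need not be those in the tissue, which was not tested. mt-Co1 (7347 to 12696 RPKM) did not overlap with mt-Cytb (3951 to 6836 RPKM), whereas every later pair of neighbours among the mRNAs in this order overlapped across the libraries. As a share of the mRNA reads, mt-Co1 was the most even member, at 31.8% to 34.3% (coefficient of variation 2.67%), and mt-Cytb next at 11.6% to 13.2% (3.29%). mt-Atp8 (37.0%) and mt-Nd3 (31.8%) varied most. mt-Atp8 (204 bases) and mt-Nd4l (297 bases) are short and overlap a neighbour. How reads over shared bases were counted was given in no source used here, so their levels are uncertain.

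**Figure D2:**
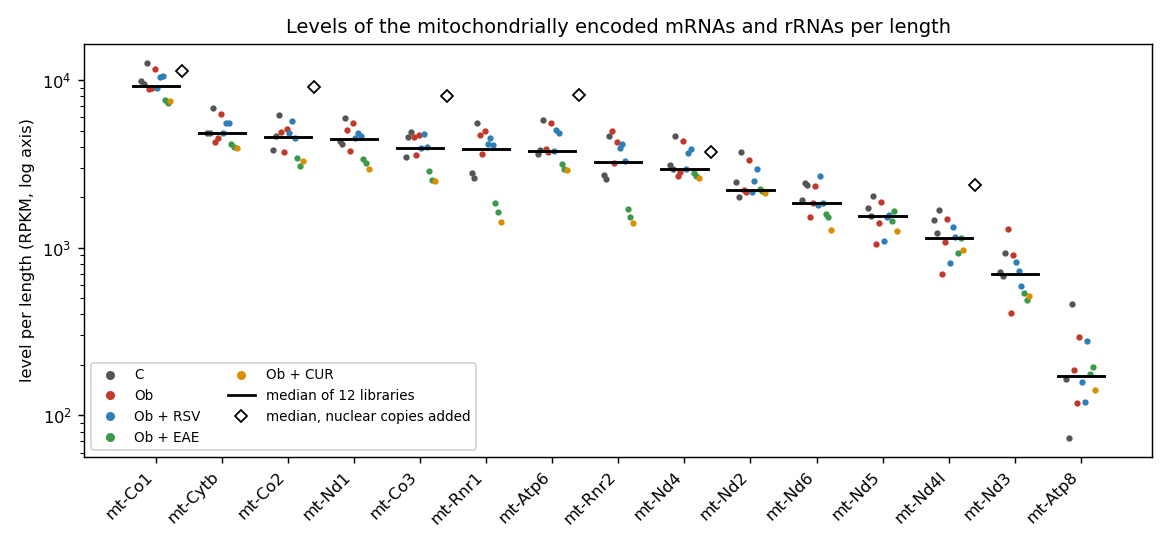
Level per length (RPKM, log axis) of the 13 mRNAs and 2 rRNAs in 12 libraries (points, coloured by group), with the median as a line and the median after reads of near-identical nuclear copies are added as a diamond. mt-Co1 stays first either way, and mt-Co2, mt-Atp6 and mt-Co3 move above mt-Cytb once copies are added. In the rRNAs the green and orange points, Ob + EAE and Ob + CUR, lie apart below the others.

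Complex IV, cytochrome c oxidase, takes its catalytic core from mt-Co1, mt-Co2 and mt-Co3. mt-Co1, the subunit with the haem groups, was at 15253, 14722 and 19615 CPM in the C libraries, 13605, 13931 and 17997 for Ob, 13787, 16141 and 16428 for Ob + RSV, 11798 and 11352 for Ob + EAE and 11529 for Ob + CUR. mt-Co2, which accepts electrons from cytochrome c, was at 2635, 3168 and 4257 CPM in the C libraries, 3336, 2565 and 3496 for Ob, 3304, 3901 and 3080 for Ob + RSV, 2344 and 2106 for Ob + EAE and 2245 for Ob + CUR. mt-Co3 was at 2728, 3583 and 3851 CPM in the C libraries, 3596, 2822 and 3712 for Ob, 3086, 3749 and 3110 for Ob + RSV, 2259 and 1995 for Ob + EAE and 1955 for Ob + CUR. All 3 had every Ob + EAE and Ob + CUR library below every Ob library, and C, Ob and Ob + RSV overlapped in each.

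Complex III contains a single mitochondrial product, cytochrome b. mt-Cytb stood at 5565, 5552 and 7821 CPM in the C libraries, 4893, 5177 and 7225 for Ob, 5553, 6334 and 6333 for Ob + RSV, 4760 and 4557 for Ob + EAE and 4519 for Ob + CUR. C 3 and Ob 3 were highest, and the Ob + EAE and Ob + CUR libraries were the lowest 3.

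Complex V, the ATP synthase, takes mt-Atp6 and mt-Atp8 into its membrane part. mt-Atp6, part of the proton channel, was at 2479, 2592 and 3914 CPM in the C libraries, 2642, 2522 and 3771 for Ob, 2561, 3453 and 3275 for Ob + RSV, 2162 and 2012 for Ob + EAE and 1981 for Ob + CUR. mt-Atp8, whose reading frame overlaps that of mt-Atp6, was at 33.9, 15.0 and 93.7 CPM in the C libraries, 38.0, 24.3 and 60.0 for Ob, 32.1, 24.6 and 56.6 for Ob + RSV, 36.0 and 39.8 for Ob + EAE and 28.9 for Ob + CUR. Ob + EAE and Ob + CUR were below Ob for mt-Atp6, whereas mt-Atp8 overlapped between all groups that have replicates, with C 3 and C 2 as its highest and lowest libraries.

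Complex I, NADH dehydrogenase, has 7 members here. mt-Nd1, at the junction of its membrane and peripheral arms, was at 4142, 3979 and 5690 CPM in the C libraries, 4805, 3627 and 5287 for Ob, 4334, 4616 and 4448 for Ob + RSV, 3231 and 3054 for Ob + EAE and 2833 for Ob + CUR. The membrane-arm subunits mt-Nd2 and mt-Nd4 followed, with mt-Nd2 at 2570, 2098 and 3849 CPM in the C libraries, 2295, 2240 and 3460 for Ob, 2231, 2595 and 3069 for Ob + RSV, 2316 and 2249 for Ob + EAE and 2192 for Ob + CUR. mt-Nd4 was at 4310, 4088 and 6387 CPM in the C libraries, 3687, 3915 and 5975 for Ob, 4065, 5057 and 5324 for Ob + RSV, 3827 and 3713 for Ob + EAE and 3575 for Ob + CUR. mt-Nd1 was lower in Ob + EAE and Ob + CUR than in every Ob library. mt-Nd2 and mt-Nd4 separated from Ob in Ob + CUR but overlapped with it in Ob + EAE.

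mt-Nd5, the most distal proton-pumping subunit, was at 3131, 2833 and 3726 CPM in the C libraries, 1925, 2563 and 3407 for Ob, 1991, 2784 and 2849 for Ob + RSV, 2621 and 3002 for Ob + EAE and 2306 for Ob + CUR. mt-Nd3 was at 249, 235 and 324 CPM in the C libraries, 449, 142 and 315 for Ob, 285, 254 and 205 for Ob + RSV, 186 and 171 for Ob + EAE and 180.0 for Ob + CUR. The short mt-Nd4l was at 434, 363 and 499 CPM in the C libraries, 207, 322 and 438 for Ob, 241, 397 and 342 for Ob + RSV, 275 and 339 for Ob + EAE and 289 for Ob + CUR. In these 3 mRNAs Ob 1 was an extreme of the 12 libraries, lowest for mt-Nd5 and mt-Nd4l and highest for mt-Nd3, and Ob + EAE overlapped with Ob.

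mt-Nd6 is the only mRNA transcribed from the light strand. Its level was 995, 1257 and 1230 CPM in the C libraries, 794, 965 and 1209 for Ob, 939, 1385 and 962 for Ob + RSV, 824 and 797 for Ob + EAE and 661 for Ob + CUR, and it made up 1.88% to 2.83% of the mRNA reads. Ob + RSV 2 and C 2 were highest, and C, Ob and Ob + RSV overlapped. The Ob + EAE libraries overlapped with Ob and lay below every C and Ob + RSV library, and Ob + CUR lay below all others. Across the 12 libraries mt-Nd6 rose and fell with the sum of the other 12 mRNAs (Pearson's r = 0.77, permutation p = 0.00334, adjusted 0.0100 over 6 relations, and Spearman's rho = 0.78, permutation p = 0.00459, adjusted 0.0164). Without the 2 libraries farthest from the median of mt-Nd6 (Ob + RSV 2 and Ob + CUR) r was 0.76 (permutation p = 0.0107). With group means removed and Ob + CUR left out it was 0.57 (permutation p = 0.0673, which took the centred values as independent and may be too small). In the 9 libraries of C, Ob and Ob + RSV it was 0.59 (permutation p = 0.0959), and the last 2 did not pass 0.05. CPM values of one library share their total, which was not separated from this relation.

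For the mRNA total and the rRNA total the coefficient over all 12 libraries is not given, because Ob + EAE and Ob + CUR form a separate cluster in rRNA. Within the 9 other libraries r was 0.53 (permutation p = 0.142) and rho 0.43 (permutation p = 0.251). With the group means removed and Ob + CUR left out, r was 0.71 (permutation p = 0.0146). That permutation took the centred values as independent, so its p may be too small. Without C 3 and Ob 3, the farthest from the median of the mRNA total, r was 0.71 (permutation p = 0.0234). The libraries left there still include the Ob + EAE and Ob + CUR cluster. The mRNA total and the summed CPM of 42 nuclear partners of oxidative phosphorylation gave r = 0.15 over 12 libraries (permutation p = 0.633, with rho = 0.25, permutation p = 0.430). In the 9 libraries r was -0.50 (permutation p = 0.158) and rho -0.77 (permutation p = 0.0215), so its sign turned when Ob + EAE and Ob + CUR were left out. Between the mRNA and the tRNA total r was 0.46 (permutation p = 0.132) and rho 0.66 (permutation p = 0.0234, adjusted 0.0467), but in the 9 libraries r was -0.048 and rho 0.18. Between the mRNA total and the number of genes detected r was -0.49 (permutation p = 0.105) and rho -0.57 (permutation p = 0.0601), and 0.006 and 0.017 in the 9. The rRNA total and ENSMUSG00000119584, a gene whose level ran from 1109 to 39096 CPM between libraries, gave r = 0.22 (permutation p = 0.503) and rho = 0.07 (permutation p = 0.835).

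Of the rRNAs, mt-Rnr1 was at 2672, 2491 and 5272 CPM in the C libraries, 4521, 3467 and 4732 for Ob, 3978, 4289 and 3918 for Ob + RSV, 1758 and 1558 for Ob + EAE and 1367 for Ob + CUR. mt-Rnr2 was at 4302, 4095 and 7308 CPM in the C libraries, 7912, 5039 and 6763 for Ob, 6249, 6616 and 5225 for Ob + RSV, 2702 and 2407 for Ob + EAE and 2219 for Ob + CUR. In both, Ob + CUR was lowest, the Ob + EAE libraries were next, and C 1 and C 2 came after them, below every Ob and Ob + RSV library. C 3 was the highest of the 12 for mt-Rnr1 and Ob 1 for mt-Rnr2.

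The tRNAs were uneven. Light-strand tRNAs (8 of the 22) held 72.3% to 88.5% of tRNA reads. mt-Tp, the proline tRNA, had 965, 714 and 1072 reads in the C libraries, 1234, 709 and 855 for Ob, 1199, 1028 and 927 for Ob + RSV, 562 and 544 for Ob + EAE and 483 for Ob + CUR. mt-Tc, the cysteine tRNA, had 598, 781 and 464 reads in the C libraries, 1264, 315 and 377 for Ob, 453, 874 and 386 for Ob + RSV, 240 and 267 for Ob + EAE and 233 for Ob + CUR. mt-Tn, the asparagine tRNA, had 628, 386 and 274 reads in the C libraries, 1570, 242 and 225 for Ob, 544, 375 and 189 for Ob + RSV, 177 and 148 for Ob + EAE and 150 for Ob + CUR. Ob 1 was the highest library in all 3, by the widest margin in mt-Tn, where its 80.9 CPM compare with 6.45 to 26.8 CPM in the other 11. mt-Tp was the most even of the 3, with a coefficient of variation of 30.8% over the libraries (RPKM), against 62.4% for mt-Tc and 100.2% for mt-Tn.

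Among the other light-strand tRNAs, mt-Te (glutamate) had 171, 124 and 307 reads in the C libraries, 188, 244 and 252 for Ob, 96, 272 and 321 for Ob + RSV, 258 and 249 for Ob + EAE and 194 for Ob + CUR. mt-Ty (tyrosine) had 136, 142 and 141 reads in the C libraries, 97, 154 and 89 for Ob, 131, 176 and 119 for Ob + RSV, 95 and 100 for Ob + EAE and 92 for Ob + CUR. mt-Te overlapped between Ob + EAE and Ob, whereas mt-Ty was below every Ob library in Ob + EAE and Ob + CUR by CPM. mt-Ts1 (serine), which overlaps mt-Co1 by 3 bases on the opposite strand, had 10, 29 and 82 reads in the C libraries, 3, 5 and 16 for Ob, 7, 2 and 25 for Ob + RSV, 25 and 25 for Ob + EAE and 39 for Ob + CUR. It was the only member higher in every Ob + EAE and Ob + CUR library than in every Ob library, and C 3 was higher still. mt-Tq (glutamine) had 14, 24 and 10 reads in the C libraries, 18, 16 and 9 for Ob, 10, 0 and 21 for Ob + RSV, 2 and 4 for Ob + EAE and 4 for Ob + CUR. mt-Ta (alanine) had 6, 8 and 14 reads in the C libraries, 33, 3 and 8 for Ob, 9, 11 and 10 for Ob + RSV, 3 and 7 for Ob + EAE and 3 for Ob + CUR. At these counts a few reads decide the order of the libraries.

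Of the heavy-strand tRNAs, mt-Tl2 (leucine) had the most, with 182, 110 and 212 reads in the C libraries, 406, 110 and 182 for Ob, 225, 239 and 410 for Ob + RSV, 125 and 98 for Ob + EAE and 45 for Ob + CUR. mt-Tl1 (the other leucine tRNA) had 58, 88 and 139 reads in the C libraries, 48, 78 and 76 for Ob, 56, 112 and 84 for Ob + RSV, 61 and 62 for Ob + EAE and 64 for Ob + CUR. mt-Th (histidine) had 31, 118 and 27 reads in the C libraries, 34, 58 and 29 for Ob, 15, 331 and 50 for Ob + RSV, 22 and 8 for Ob + EAE and 8 for Ob + CUR. The highest libraries differed from gene to gene, with Ob + RSV 3 and Ob 1 for mt-Tl2, C 3 for mt-Tl1 and Ob + RSV 2 for mt-Th. mt-Ts2 (serine) had 24, 69 and 92 reads in the C libraries, 42, 29 and 33 for Ob, 34, 161 and 80 for Ob + RSV, 23 and 22 for Ob + EAE and 10 for Ob + CUR. mt-Tw (tryptophan) had 32, 65 and 46 reads in the C libraries, 50, 48 and 52 for Ob, 25, 31 and 58 for Ob + RSV, 28 and 18 for Ob + EAE and 9 for Ob + CUR. Both were below Ob in Ob + EAE and Ob + CUR by CPM.

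Ob + RSV 2 was also the highest library for the arginine and isoleucine tRNAs. mt-Tr had 5, 22 and 17 reads in the C libraries, 6, 15 and 25 for Ob, 13, 84 and 16 for Ob + RSV, 7 and 6 for Ob + EAE and 0 for Ob + CUR. mt-Ti had 3, 9 and 15 reads in the C libraries, 0, 11 and 13 for Ob, 19, 60 and 14 for Ob + RSV, 3 and 3 for Ob + EAE and 1 for Ob + CUR. The remaining tRNAs were rarely read. mt-Tk (lysine) had 19, 11 and 20 reads in the C libraries, 35, 6 and 10 for Ob, 14, 6 and 13 for Ob + RSV, 19 and 5 for Ob + EAE and 11 for Ob + CUR. mt-Tm (methionine) had 13, 9 and 20 reads in the C libraries, 1, 22 and 6 for Ob, 3, 0 and 23 for Ob + RSV, 6 and 10 for Ob + EAE and 4 for Ob + CUR. mt-Tt (threonine) had 4, 5 and 19 reads in the C libraries, 27, 7 and 6 for Ob, 5, 17 and 12 for Ob + RSV, 4 and 11 for Ob + EAE and 0 for Ob + CUR. In CPM the groups with replicates overlapped in mt-Tk and mt-Tt, mt-Tm was lower in both Ob + EAE libraries than in all C libraries, and Ob + CUR had no read of mt-Tt.

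mt-Td (aspartate), mt-Tv (valine), mt-Tg (glycine) and mt-Tf (phenylalanine) had 38, 26, 14 and 10 reads in all 12 libraries together. mt-Td had 2, 0 and 8 reads in the C libraries, 0, 8 and 3 for Ob, 0, 6 and 4 for Ob + RSV, 3 and 1 for Ob + EAE and 3 for Ob + CUR. mt-Tv had 0, 0 and 14 reads in the C libraries, 3, 4 and 0 for Ob, 2, 0 and 1 for Ob + RSV, 0 and 1 for Ob + EAE and 1 for Ob + CUR. In both, C 3 was the highest library or level with the highest. mt-Tg had 1, 0 and 4 reads in the C libraries, 0, 1 and 0 for Ob, 0, 2 and 0 for Ob + RSV, 6 and 0 for Ob + EAE and 0 for Ob + CUR. mt-Tf had 0, 0 and 0 reads in the C libraries, 3, 1 and 0 for Ob, 5, 1 and 0 for Ob + RSV, 0 and 0 for Ob + EAE and 0 for Ob + CUR. No library held more than 6 reads of either. In all, 13 of the 22 tRNAs and 28 of the 37 members had a read in every library. A count of 0 was taken to allow for an expected count of up to 3 reads. The 0 of mt-Tr and mt-Tt in Ob + CUR is thus compatible with up to 3 reads of 23273359. Whether the tRNA reads come from mature tRNAs or from uncut precursors cannot be told apart in gene counts.

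**Figure D3:**
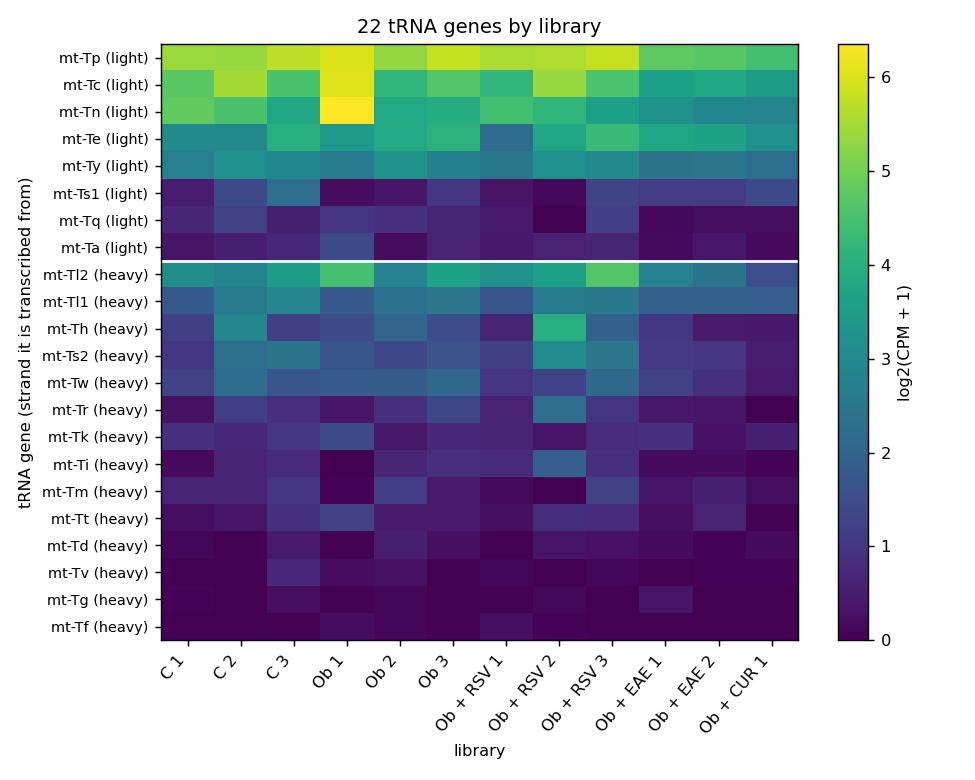
Level of the 22 tRNA genes as log2(CPM + 1) (colour) in each of the 12 libraries (columns), with light-strand tRNAs above the white line and heavy-strand tRNAs under it, each sorted by total reads. mt-Tp, mt-Tc and mt-Tn are the brightest rows, mt-Tn in Ob 1 (80.9 CPM) is the brightest cell, and mt-Th in Ob + RSV 2 (15.2 CPM) stands out among the heavy-strand tRNAs.

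The first comparison asked what the HFD changed. In Ob vs. C no member was a differentially expressed gene (DEG, defined by an adjusted p below 0.05 together with a change of 1 or more in log2FC), nor was any of the 33534 genes tested (0%, edgeR's quasi-likelihood test). At an unadjusted p under 0.05 there were 922 genes, of which 1 of the 36 members tested, mt-Tn (log2FC 0.88, SE 0.43, edgeR adjusted p = 1). This rested on Ob 1, without which the log2FC was -0.56. mt-Rnr1 differed by 0.33 (SE 0.27) and mt-Rnr2 by 0.38 (SE 0.27), and the mRNAs by -0.39 (mt-Nd4l) to 0.21 (mt-Nd3). No member had all Ob libraries above or below all C libraries in CPM, against 3.42% of tested genes above and 4.21% below.

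Ob + RSV vs. Ob asked what resveratrol changed in obese mice. No member and none of the 33534 genes was a DEG (0%), and 1059 genes had an unadjusted p under 0.05. The one such member was again mt-Tn (log2FC -1.20, SE 0.43, edgeR adjusted p = 1), which was 0.25 without Ob 1. mt-Rnr1 and mt-Rnr2 differed by -0.10 and -0.16, with SEs of 0.27, and the mRNAs by -0.32 (mt-Nd3) to 0.11. No member separated the groups, against 2.94% of genes above and 3.75% below.

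In Ob + RSV vs. C there was likewise no DEG among the members or the 33534 genes (0%), with 962 genes at an unadjusted p under 0.05, among them mt-Tl2 (log2FC 0.85, SE 0.38, edgeR adjusted p = 1), whose log2FC was 0.28 without Ob + RSV 3. mt-Rnr1 and mt-Rnr2 differed by 0.24 and 0.22, with SEs of 0.27, and the mRNAs by -0.40 (mt-Nd4l) to 0.05. mt-Ti, with few reads, was the only member higher in all Ob + RSV libraries (2.05% of genes), and none was lower in all (3.38%). The counts of 0 in these comparisons were also 0 in DESeq2. In all 3 comparisons no member was called whichever single library was left out, while the DEGs among all genes then numbered 0 to 11.

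Ob + EAE vs. Ob gave the DEGs. There were 665 of 36164 genes tested (1.84%), and 5 of 37 members, all lower in Ob + EAE. mt-Rnr1 fell by 1.42 on the log2 scale (SE 0.29, edgeR adjusted p = 0.0123) and mt-Rnr2 fell by 1.44 (SE 0.30, edgeR adjusted p = 0.0121). Of the tRNAs, mt-Tn fell by 2.35 (SE 0.53, edgeR adjusted p = 0.0176), mt-Tc fell by 1.67 (SE 0.41, edgeR adjusted p = 0.0274) and mt-Tp fell by 1.09 (SE 0.24, edgeR adjusted p = 0.0153). No mRNA was a DEG, and their log2FCs ran from -0.83 (mt-Nd3, SE 0.30, edgeR adjusted p = 0.154) and -0.73 (mt-Co3, SE 0.25, edgeR adjusted p = 0.124) to 0.037 (mt-Nd5). The median was -0.37 for the 13 mRNAs, -1.43 for the 2 rRNAs and -1.28 for the 22 tRNAs, beside 0.046 for all genes tested.

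The calls depended on single libraries. Without Ob 1 none of the 5 was called and 18 genes remained as DEGs, with mt-Tn at -0.86 (edgeR adjusted p = 0.448) and mt-Rnr2 at -1.20 (0.158). Without Ob + EAE 2 none was called (19 DEGs), without Ob 2 there were 7, without Ob 3 there were 5 of 1173 DEGs, and without Ob + EAE 1 only mt-Tn (228 DEGs), with the remaining library assumed to vary like the other groups. The 7 members without Ob 2 were among 638 DEGs. DESeq2 also called 5 members, among 905 DEGs of 36164 genes, with mt-Tl2 (log2FC -1.40, adjusted p = 0.0430) in and mt-Tc (-1.70, adjusted p = 0.0625) out. The rRNAs had a log2FC of -1.54 to -1.20 whichever library was left out. In CPM, 17 of 37 members were lower in both Ob + EAE libraries than in all Ob libraries, 6 of them mRNAs, 2 rRNAs and 9 tRNAs, against 13.7% of all genes, and 1, mt-Ts1, was higher in both, against 24.9%.

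Set against the other groups, comparisons added after seeing the data, the rRNAs were also lower in Ob + EAE but were not DEGs. In Ob + EAE vs. C mt-Rnr1 differed by -1.08 (SE 0.29, edgeR adjusted p = 0.505) and mt-Rnr2 by -1.04 (SE 0.29, 0.525), with 5 DEGs in all (0.0138%) and none among the members. In Ob + EAE vs. Ob + RSV they differed by -1.33 (SE 0.29, edgeR adjusted p = 0.0606) and -1.27 (SE 0.29, 0.0693), with 39 DEGs (0.108%) and again none among the members. All of these comparisons share the Ob + EAE libraries.

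Ob + CUR vs. Ob set a single library against 3, so no spread within Ob + CUR was measured, and the adjusted p-values here assume that it varies like the other groups. On that assumption there were 60 DEGs (0.166%) and no member among them. mt-Rnr1 differed by -1.70 (SE 0.40, edgeR adjusted p = 0.0685), mt-Rnr2 by -1.64 (SE 0.40, edgeR adjusted p = 0.0826), mt-Tp by -1.41 (SE 0.32, edgeR adjusted p = 0.0576), mt-Tl2 by -2.81 (SE 0.65, edgeR adjusted p = 0.0685), mt-Tn by -2.59 (SE 0.72, edgeR adjusted p = 0.131) and mt-Tc by -1.92 (SE 0.56, edgeR adjusted p = 0.148). The mRNAs differed by -0.86 (mt-Co3) to -0.21 (mt-Nd4l). Of the members, 24 were lower than in all Ob libraries (17.7% of genes) and mt-Ts1 was higher (33.8%). DESeq2 called mt-Rnr1, mt-Rnr2, mt-Tl2 and mt-Tp, and edgeR without Ob 3 also called some members. Both settings called more of all genes than the fit above, so these calls are not a result about the members alone. Ob + EAE vs. Ob and Ob + CUR vs. Ob share the Ob libraries, so their like values are not independent.

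**Figure D4:**
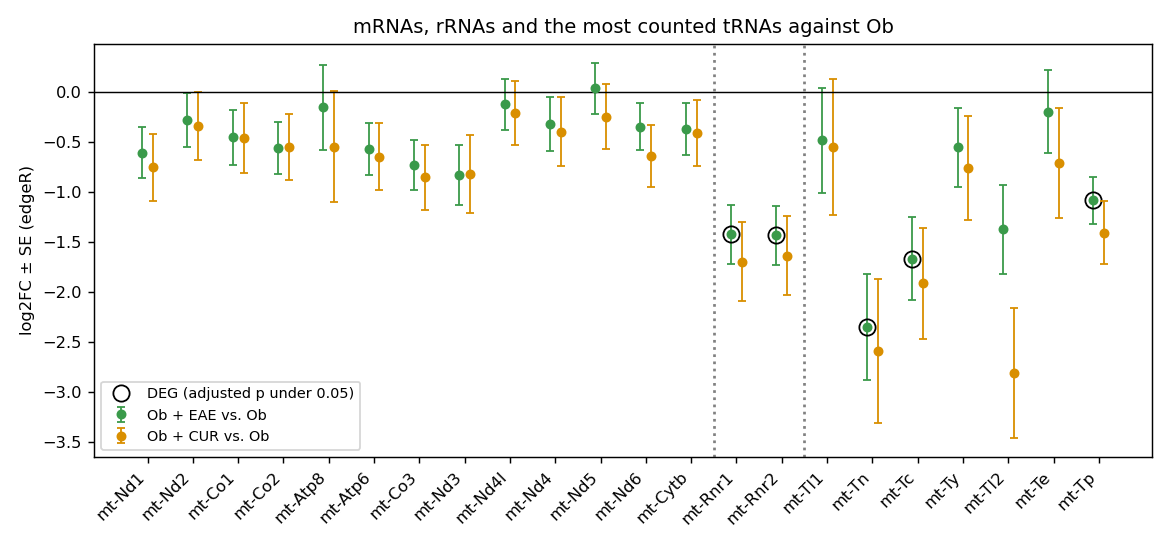
log2FC ± SE (edgeR) of the 13 mRNAs, the 2 rRNAs and the 7 tRNAs with the most reads, in Ob + EAE vs. Ob (green) and Ob + CUR vs. Ob (orange), with dotted lines between the classes and rings around DEGs. The 5 rings are mt-Rnr1, mt-Rnr2, mt-Tn, mt-Tc and mt-Tp in Ob + EAE, and the mRNAs lie between -0.86 and 0.037.

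Nuclear genes of the same pathway were read off the same fits. In Ob + EAE vs. Ob, 14 of 42 nuclear subunits of oxidative phosphorylation were DEGs, all lower (median log2FC -0.85 beside 0.046 for all genes, of which 1.84% were DEGs). They were led by Cox6c (-1.51, SE 0.28, edgeR adjusted p = 0.00569), Ndufa4 (-1.34, SE 0.26, edgeR adjusted p = 0.00865) and Ndufb8 (-1.22, SE 0.26, edgeR adjusted p = 0.0134). Of 78 mitochondrial ribosomal proteins, 16 were DEGs, all lower (median -0.715), led by Mrpl11 (-1.17, SE 0.25, edgeR adjusted p = 0.0144), Mrpl20 (-1.44, SE 0.31, edgeR adjusted p = 0.0149) and Mrpl52 (-1.55, SE 0.35, edgeR adjusted p = 0.0179). Both counts were 0 without Ob 1 or without Ob + EAE 2, 1 without Ob + EAE 1, and 20 and 25 without Ob 3. With the stricter filter filterByExpr they were 1 and 0, and with mitochondrially encoded genes left out of the scaling 9 and 10. Nuclear partners were thus lower by more than the mitochondrial mRNAs (median -0.37), and that difference was not tested. Summed, the 42 partners stood at 5747 and 5112 CPM in Ob + EAE, 5468 in Ob + CUR, 11164, 7506 and 6929 in Ob, 7008, 7202 and 6765 in C and 8593, 7467 and 6315 in Ob + RSV, with Ob 1 highest of all.

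The lists that act on mitochondrial DNA and RNA are given next, beside the 1.84% of all genes that were DEGs in Ob + EAE vs. Ob. The lists are short, and their counts of DEGs were not tested against that share. Of 20 genes of mitochondrial transcription and genome maintenance none was a DEG in Ob + EAE vs. Ob (median -0.17). Lig3, a DNA ligase, Mterf2 and the DNA-binding protein Ssbp1 had the smallest p, with log2FCs of 0.68, -0.57 and -0.42. Of 37 genes of RNA processing, modification and decay 1 was a DEG, Slirp, a partner of Lrpprc in stabilizing mitochondrial mRNAs (-1.41, SE 0.39, edgeR adjusted p = 0.0486). Of 30 translation factors and aminoacyl-tRNA synthetases none was (median -0.24), with Lars2, the leucyl-tRNA synthetase, at -2.01 (SE 0.67, edgeR adjusted p = 0.114). Among 10 biogenesis factors 1 was a DEG, the coactivator Ppargc1b, higher by 2.65 (SE 0.50, edgeR adjusted p = 0.00678), while Ppargc1a was at 0.71 (SE 0.25, edgeR adjusted p = 0.150). The other 8 ran from Sirt3 (-0.45) through Gabpb1 (-0.38), Esrra (-0.36), Nrf1 (-0.29), Sirt1 (-0.034), Yy1 (0.22) and Pprc1 (0.36) to Gabpa (0.43), none a DEG.

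In Ob + CUR vs. Ob no gene of these 6 lists was a DEG, although 40 of 42 nuclear partners (median -0.86) and 73 of 78 ribosomal proteins (median -0.73) had a log2FC below 0 beside a median of 0 for all genes. This count of 0 depended on the method. Some subunits and ribosomal proteins were called lower by DESeq2, with all genes that had a read tested, with a replicate block and without Ob 3. Each of these settings also called more of all genes than the main fit did, and each has a single Ob + CUR library. Ob vs. C had no DEG in any list either. There 38 of 42 partners and 66 of 78 ribosomal proteins were above 0 (medians 0.33 and 0.30, beside -0.003 for all genes), while 9 of 13 mitochondrial mRNAs were below (median -0.085). In Ob + RSV vs. Ob the signs were opposite for the nuclear lists, with 38 of 42 partners and 61 of 78 ribosomal proteins below 0 (medians -0.21 and -0.13, beside 0 for all genes) and a median of -0.01 for the mitochondrial mRNAs. Genes of a list can vary together between libraries. These sign counts were not tested or set against the share of all genes. Ob + RSV vs. C had no DEG in any list, with medians of 0.119 and 0.105. Both comparisons with Ob share its libraries, of which Ob 1 was the highest for these partners.

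Counts of several members were shared with nuclear copies. By blastn of the mitochondrial transcripts against all transcripts of the reference, 17 rows of the count table matched a member at 90% identity or more over at least 100 bases. Of these, 7 were near-identical (at least 99% over the aligned part). Gm10925 matches mt-Atp6 over 678 bases, Gm28437 mt-Co3 over 783, Gm28661 mt-Co2 over 681, Gm10222 mt-Nd4l over 294 and Gm28439 mt-Nd4 over 876 of its 1378 bases, all at 100%. Gm29216 matches mt-Co1 over 483 of 1545 bases with 1 mismatch, the capital in the window printed above. Gm28438 matches mt-Nd3 over 345 bases with 1 mismatch and had no read in any library.

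Reads of Gm10925, as a percentage of those of mt-Atp6, were 124, 100.4 and 122 % in the C libraries, 117, 109.7 and 119.9 for Ob, 118, 108 and 123 for Ob + RSV, 128 and 133 for Ob + EAE and 132 for Ob + CUR. For Gm28437 and mt-Co3 the range was 99.3% to 107%, for Gm28661 and mt-Co2 89.9% to 115% and for Gm10222 and mt-Nd4l 92.8% to 116%. For the 2 partial copies it was 24.7% to 36.0% (Gm28439, mt-Nd4) and 17.4% to 26.6% (Gm29216, mt-Co1). The 4 copies of whole or nearly whole mRNAs that had reads thus held about as many as their members and the 2 partial copies held fewer, while Gm28438, which spans nearly all of mt-Nd3, had none. Together the near-identical copies had 10684 to 19830 CPM, 29.7% to 35.4% of the reads of the 13 mRNAs, so levels of these 6 mRNAs in the count table are uncertain. With the copies added, mt-Co2 (median 9136 RPKM), mt-Atp6 (8187) and mt-Co3 (8081) came next after mt-Co1 (11399) and before mt-Cytb (4854), and mt-Nd4l (2371) rose from rank 11 to 8. The order of mt-Nd3 and mt-Atp8 at the end was unchanged.

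Among the diverged copies, reads of Gm13340, as a percentage of mt-Co1, were 0.508, 0.468 and 1.91 % in the C libraries, 0.35, 0.402 and 1.53 for Ob, 0.527, 0.527 and 1.75 for Ob + RSV, 1.41 and 1.56 for Ob + EAE and 1.43 for Ob + CUR. Those of Gm13341, 95.9% identical to mt-Co2, were 1.23, 1.05 and 3.75 % in the C libraries, 0.791, 1.01 and 3.33 for Ob, 1.11, 1.09 and 3.72 for Ob + RSV, 3.32 and 2.97 for Ob + EAE and 3.17 for Ob + CUR. In both, C 3, Ob 3, Ob + RSV 3, Ob + EAE and Ob + CUR were high and the replicates 1 and 2 of C, Ob and Ob + RSV low, so that 6 libraries stood apart from the other 6 with no value in between. These libraries differ in this measure in a way that crosses the groups, and its part in other results was not tested. Gm4076, Gm11407, Gm11410 and Gm13339, each at under 0.5% of its member, split the libraries in the same way, and Gm11408 (mt-Nd6) did so except for Ob + RSV 2, which was among the high ones. All copies other than Gm10925, Gm28437 and Gm28661, which have the most reads, were named after their values were seen.

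**Figure D5:**
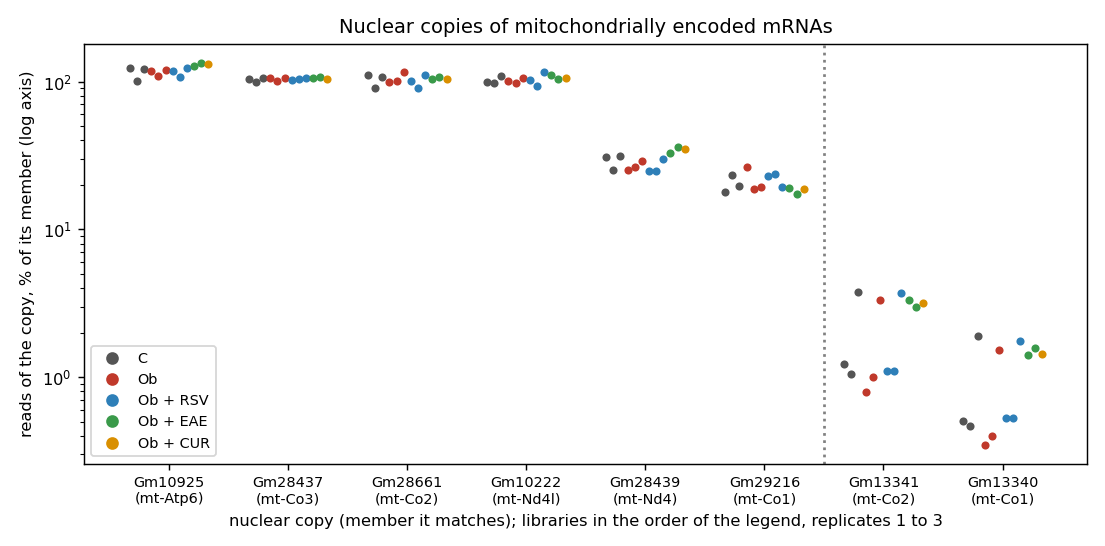
Reads of 8 nuclear copies as a percentage of the reads of the member they match (log axis), with a point for each of 12 libraries coloured by group and ordered within each copy from C 1 to Ob + CUR. Left of the dotted line are 6 near-identical copies at 17.4% to 133% of their members. To its right the diverged copies Gm13341 and Gm13340 fall into 2 sets of 6 libraries each.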

How the data were processed

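The raw count table deposited by the authors held whole-number read counts per gene. Per the labels, libraries were made with a stranded poly-A kit and sequenced as paired reads, and the submitters' processing notes name FastQC, featureCounts and GRCm39. The strand setting and the treatment of reads that map to several places were given in no source used here. All 12 sample columns were matched to samples by name.

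Members and gene lists were chosen with earlier results of these data known. CPM used all counted reads of a library, and RPKM used transcript lengths from GENCODE vM21. Genes with at least 10 reads in total were tested by edgeR's quasi-likelihood test (edgeR 4.0.16, R 4.3.3) with TMM scaling and Benjamini-Hochberg adjustment, in a fit of the 9 libraries of C, Ob and Ob + RSV and in a fit of all 12 for Ob + EAE and Ob + CUR, where the single Ob + CUR library was assumed to vary like the other groups. SE is the standard error of log2FC. DEGs were genes with an adjusted p below 0.05 whose log2FC was 1 or more in size. Class totals were compared by exact permutation tests and relations by 100000 permutations (scipy 1.17.1). Copies were sought with blastn 2.17.0. The rule for named genes took every member, with values in each library for mRNAs, rRNAs and tRNAs with at least 10 reads in total, of each nuclear list up to 3 genes with the smallest p, biogenesis factors in full, and the 3 copies with most reads. Alternatives were other scalings and filters, DESeq2 1.42.0, a replicate block and each library left out. On simulated counts of Ob vs. C over 33534 genes, the test recovered 17 of 50 changed genes at log2FC 1, 41 at 2, 48 at 3 and 50 at 4, with 4 false calls. The changed genes were drawn from well-counted genes alone, so this recovery does not cover tRNAs with few reads. A gene counted as recovered only with an estimated log2FC of 1 or more in size, which lowers recovery at log2FC 1. The simulated spread followed its trend with level, without differences between genes of like level. The comparisons of Ob + EAE and Ob + CUR, which have fewer libraries, were not simulated. Depth was 15655156 to 26284661 reads per library, and floors cover counting error only.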

Additional observations from a re-analysis of the deposited data

How the results depend on the processing

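Which genes were counted as DEGs depended on the filter. Testing all genes that had a read gave 35 DEGs for Ob vs. C, 11 for Ob + RSV vs. Ob, 32 for Ob + RSV vs. C, 1031 for Ob + EAE vs. Ob and 810 for Ob + CUR vs. Ob. Among them were 1 member, mt-Tn, for Ob + RSV vs. Ob and 6 members each for Ob + EAE vs. Ob and Ob + CUR vs. Ob. With filterByExpr there were 77 DEGs in Ob + EAE vs. Ob, with 2 members, and 5 in Ob + CUR vs. Ob. DESeq2 gave 274 DEGs and 4 members in Ob + CUR vs. Ob. With the replicate block there were 50, 10, 35, 1417 and 1716 DEGs in the 5 comparisons, and 7 members in Ob + CUR vs. Ob. Same-numbered samples of C, Ob and Ob + RSV correlated at -0.026 to 0.329 in their deviations from the group means, not all over 0.1, so the numbers were not taken as pairs, although the replicates numbered 3 stood apart in the diverged copies and the block raised the number of DEGs in all 5 comparisons. Leaving out each library gave 0 to 11 DEGs for Ob vs. C, 0 to 2 for Ob + RSV vs. Ob, 0 to 3 for Ob + RSV vs. C, 18 to 1173 in Ob + EAE vs. Ob with 0 to 7 members, and 10 to 453 in Ob + CUR vs. Ob with 0 to 5 members. It gave log2FCs of -0.083 to 0.22 for mt-Nd5 in Ob + EAE vs. Ob, -0.31 to 0.040 for mt-Rnr2 in Ob + RSV vs. Ob, and for mt-Tn -0.56 to 1.27 in Ob vs. C and -1.60 to 0.25 in Ob + RSV vs. Ob. For the 3 comparisons among C, Ob and Ob + RSV, in the order above, the mRNA total then ran from -0.25 to 0.047, -0.043 to 0.19 and -0.14 to 0.090, and the tRNA total from -0.12 to 0.47, -0.42 to 0.18 and -0.073 to 0.26, while the rRNA total ran from -0.25 to 0.026 in Ob + RSV vs. Ob. The mean log2(CPM + 1) of the tRNAs differed by -0.69 in Ob + CUR vs. Ob. Relations turned to r = -0.048 (mRNA and tRNA totals), -0.498 (nuclear partners), 0.006 (genes detected) and -0.037 (ENSMUSG00000119584) in the 9 libraries, and to -0.458 (nuclear partners) and -0.284 (ENSMUSG00000119584) with group means removed and Ob + CUR left out. The cause was not tested. For tRNAs with few reads, counting error is large.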
